A study of Mus musculus with 6 samples.

Results

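The genes of nonmuscle myosin II were compared between FHL3-KO and WT cultures. They are the heavy chains Myh9, Myh10 and Myh14, the smooth muscle heavy chain Myh11, the essential light chain Myl6, the regulatory light chains Myl9, Myl12a and Myl12b, and Mylk, the kinase that phosphorylates the regulatory light chains. These 9 genes were taken by name from a table of 55420 rows, and each name occurred once. The samples were 3 libraries labelled FHL3-KO and 3 labelled WT, all of C2C12, a line of mouse myoblasts that fuse into multinucleate myotubes. Both groups were grown in 10% fetal bovine serum and collected on day 4 in 2% horse serum, and no other allele or agent is named for either. The labels name no clone of the FHL3-KO cells and no separate cultures, so an effect of the clone cannot be told apart from one of the genotype, and each p-value rests on the spread among these libraries alone, which may be technical.

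Class II myosins are hexamers of a pair of heavy chains, a pair of essential light chains and a pair of regulatory light chains. The heavy chain sets the paralogue, named IIA for Myh9, IIB for Myh10 and IIC for Myh14, while the light chains are shared. Phosphorylation of the regulatory light chain by Mylk or by other kinases lets the molecules assemble into contractile filaments, and a phosphatase built on Ppp1r12a reverses it. In myoblasts this motor drives spreading, alignment and the cortical tension that accompanies fusion, and sarcomeric myosins form later in the same cells.

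The 3 regulatory light chains are close copies, and their sequences are shown because this closeness limits how far their levels can be told apart. Their coding sequences are 516 bases long, and that of Myl12a is 96.5% identical to that of Myl12b. Myl9 is 85.7% identical to Myl12a and 86.4% to Myl12b. The first 90 coding bases (GENCODE M21 transcripts, GRCm38), which hold the region of the phosphorylated residues, are given below with capitals at the 14 positions where the 3 genes do not all share a base.
Myl9: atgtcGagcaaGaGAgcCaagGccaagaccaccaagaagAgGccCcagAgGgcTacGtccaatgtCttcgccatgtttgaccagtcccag
Myl12a: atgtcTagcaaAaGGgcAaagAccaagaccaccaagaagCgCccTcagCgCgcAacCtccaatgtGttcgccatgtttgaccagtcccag
Myl12b: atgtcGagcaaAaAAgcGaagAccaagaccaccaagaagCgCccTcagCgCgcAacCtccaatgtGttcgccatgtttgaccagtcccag
Within these bases Myl12a and Myl12b differ at 4 positions. Over whole transcripts 10.2% of the 50-base words of Myl12a also occur in Myl12b, and 9.17% of those of Myl12b occur in Myl12a, with a longest shared run of 120 bases. The sources used here do not say how shared reads were counted, and the division between these 2 genes is therefore uncertain. Between Myl9 and either of them no 50-base word was shared.

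The deposited values are read as FPKM, fragments per kilobase of gene and per size of the library, and the depth behind them is unknown. They summed to between 477708 and 494176 in the FHL3-KO libraries and between 425080 and 473477 in the WT libraries. Fhl3 itself did not fall in the libraries labelled FHL3-KO, at 57.2, 53.5 and 58.9 FPKM, against 27.8, 30.03 and 33.7 FPKM in WT. Its RNA level thus does not bear out the label, but a single value per gene cannot show whether the gene was disrupted. FHL3-KO below means the libraries so labelled. Of 9 skeletal myotube markers 9 were tested, 7 rose and 0 fell, where 19.7% of all genes tested rose and 21.2% fell. These shares also stand beside the fibroblast and myoblast markers below. Des and Ttn were not called (limma adjusted p = 0.24 and 0.308), with log2 changes of 0.18 and -0.29. The summed level of the 9 myotube markers was 9840 to 10410 FPKM in FHL3-KO and 4395 to 4993 FPKM in WT. Summed fibroblast markers stood at 287.6 to 324.6 FPKM in FHL3-KO and 559.8 to 627.3 FPKM in WT, with Thy1 at 0 in every library. Of 6 tested, Dcn fell to 12.1 FPKM in FHL3-KO, against 151.9 FPKM in WT, and Postn to 10.1 FPKM, against 108.2 FPKM in WT. Col3a1 fell to 122.8 FPKM in FHL3-KO, against 201.6 FPKM in WT. Col1a1 rose to 8.67 FPKM in FHL3-KO, against 4.16 FPKM in WT, and Col1a2 and Pdgfra were not called. Markers of undifferentiated or cycling myoblasts summed to 81.9 to 99.5 FPKM in FHL3-KO and 106 to 133 FPKM in WT. Of 5 tested, Myf5 fell to 8.64 FPKM in FHL3-KO, against 29.5 FPKM in WT, and Mki67 to 3.17 FPKM, against 6.92 FPKM in WT. Top2a fell to 21.5 FPKM in FHL3-KO, against 36.5 FPKM in WT. Ccnb1 rose to 29.8 FPKM in FHL3-KO, against 18.5 FPKM in WT, and Cdk1 was not called. Liver transcripts summed to 78.01 FPKM in WT replicate 1 and to at most 0.021 FPKM in any other library. The called myotube markers thus all rose, and the called fibroblast and myoblast markers mostly fell, beside the results given here. The part of these markers in the results was not tested. In bulk RNA, fewer cells of a type and less RNA per cell cannot be told apart.

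In both groups the most abundant RNAs of this motor were Myl6, Myl12a and Myh9, and the smooth muscle chain was close to absent. The mean levels ran in the same order in FHL3-KO and in WT, from Myl6 through Myl12a, Myh9, Myl12b, Myl9, Myh10, Mylk and Myh14 to Myh11. Neighbours in this order did not overlap between libraries of a group, except Myl6 and Myl12a in FHL3-KO. Levels between genes are compared per length, and the sources used here do not say which gene lengths the authors used.

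**Figure D1:**
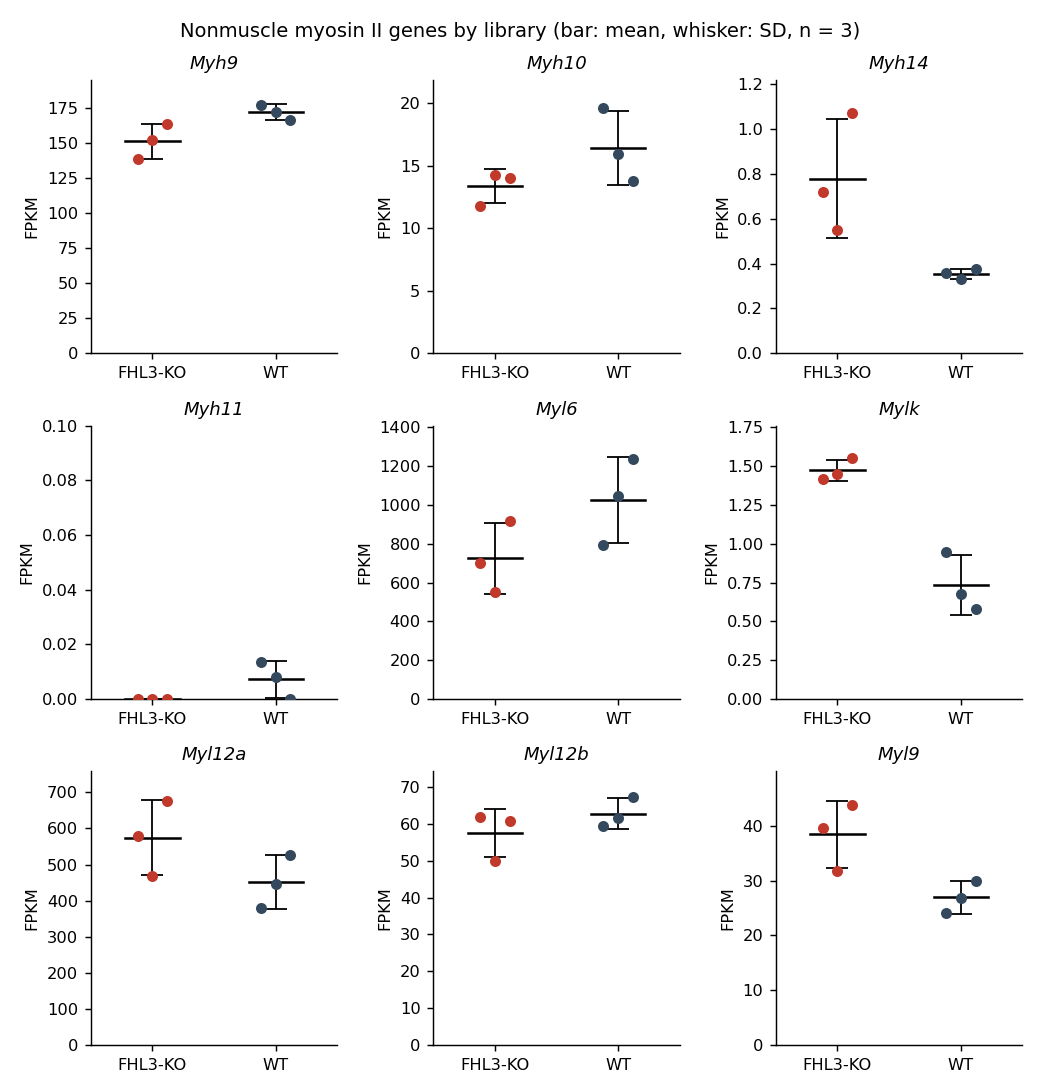
FPKM of the 9 genes in each library, with FHL3-KO left of WT in each panel. Points are libraries, bars are means and whiskers are SD (n = 3 each). Mylk, Myl9 and Myh14 do not overlap between the groups and are higher in FHL3-KO, Myh9 does not overlap and is lower, and Myh11 is at or below 0.014 FPKM everywhere.

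Of the 9 genes, 7 reached a group mean of 1 FPKM and were tested with limma on log2(FPKM + 1). Of these 2 rose in FHL3-KO, Mylk and Myl9, 0 fell, and 5 did not pass an adjusted p of 0.05. Over all 12528 genes tested 40.8% passed, 19.7% as rises and 21.2% as falls, so 2 rises among 7 genes are close to that background. Rises made up 48.2% of all calls, and 36.3% with the libraries scaled to the same FPKM sum. For 3 of the 7 the libraries of the groups stood apart, 2 higher and 1 lower in FHL3-KO. Over all genes tested this held for 53.8%, with 26.9% in each direction. Mylk, 1 of the 2 rises, passed the filter only through its level in FHL3-KO and had to be higher there, so the count supports nothing by itself.

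Myh9, the heavy chain of IIA, was the most abundant heavy chain per length. Myh9 (ENSMUSG00000022443, chromosome 15, 77760587 to 77842175, GRCm38, minus strand) stood at 138.6, 152.6 and 163.7 FPKM in FHL3-KO and at 177.8, 172.5 and 166.6 FPKM in WT. The lowest WT library was 166.6 FPKM and the highest FHL3-KO library 163.7 FPKM, so the groups were narrowly apart. It averaged 151.7 ± 12.5 FPKM in FHL3-KO and 172.3 ± 5.6 FPKM in WT (SD, n = 3 each). The log2 change of -0.19 (95% interval -0.39 to 0.016) did not pass limma (adjusted p = 0.124). It passed with the libraries scaled to the same FPKM sum (-0.30, limma adjusted p = 0.0441) or after quantile normalization (-0.37, 0.0249), and its sign turned when each library's trend with exon length was removed (0.10, 0.489). Its direction thus differed between these settings.

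Myh10, the heavy chain of IIB, was far less abundant per length. Myh10 (ENSMUSG00000020900, chromosome 11, 68691559 to 68816632, plus strand) was at 11.8, 14.3 and 14.03 FPKM in FHL3-KO and at 19.6, 15.9 and 13.8 FPKM in WT. The groups overlapped, since WT replicate 3 lay below 2 FHL3-KO libraries. The log2 change was -0.27 (95% interval -0.59 to 0.052, limma adjusted p = 0.155), and 0.0022 after removal of the trend with median transcript length.

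Myh14, the heavy chain of IIC, was low in both groups and higher in each FHL3-KO library. Myh14 (ENSMUSG00000030739, chromosome 7, 44605803 to 44670843, minus strand) was at 0.717, 0.549 and 1.07 FPKM in FHL3-KO and at 0.36, 0.329 and 0.374 FPKM in WT. It averaged 0.779 ± 0.266 FPKM in FHL3-KO and 0.354 ± 0.0227 FPKM in WT, below the filter in both. Tested without a filter, its log2 change of 0.38 did not pass (limma adjusted p = 0.0942). The exact two-sided permutation p was 0.1, which 3 against 3 libraries cannot go below. Myh11 (ENSMUSG00000018830, chromosome 16, 14194535 to 14291372, minus strand) was listed at 0 in all 3 FHL3-KO libraries and at 0.0136, 0.0082 and 0 FPKM in WT. Of the 5 defining markers of smooth muscle in the list, Myh11 and Myocd were near 0, Myocd at 0.0347 FPKM in FHL3-KO and 0.0797 FPKM in WT. Cnn1 fell to 0.151 FPKM in FHL3-KO, against 1.24 FPKM in WT (limma adjusted p = 0.0022, and 0.00676 without a filter). It passed the filter only through its level in WT and had to be lower in FHL3-KO. Lmod1 rose to 1.69 FPKM in FHL3-KO, against 1.09 FPKM in WT (limma adjusted p = 0.0475). Acta2, which differentiating myoblasts also express, averaged 1185 FPKM in FHL3-KO and 1003 FPKM in WT (limma adjusted p = 0.0949).

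Myh9 made up most of the heavy chain pool in both groups. Myh9 took 91.5% ± 0.298 of the summed heavy chain FPKM in FHL3-KO and 91.2% ± 1.16 in WT. Myh10 took 8.06% ± 0.407 in FHL3-KO and 8.66% ± 1.17 in WT, with overlapping groups for both. Myh14 took 0.467% ± 0.135 in FHL3-KO and 0.188% ± 0.0169 in WT, without overlap (exact two-sided permutation, p = 0.1, 0.4 adjusted over 4 shares). The pool itself summed to 151.2, 167.5 and 178.8 FPKM in FHL3-KO and to 197.8, 188.8 and 180.8 FPKM in WT, and this difference of -23.3 FPKM became 3.36 FPKM after removal of the exon length trend.

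Mylk, myosin light chain kinase, was low in both groups and entered the test only through its level in FHL3-KO. Mylk (ENSMUSG00000022836, chromosome 16, 34745210 to 35002420, plus strand) was at 1.42, 1.45 and 1.55 FPKM in FHL3-KO and at 0.949, 0.676 and 0.578 FPKM in WT. Every FHL3-KO library lay above every WT library, and the FHL3-KO values were close together. The ratio of the means was 2.0, and the log2 change was 0.52 (SE 0.129, limma adjusted p = 0.0163, and 0.0441 without a filter). At such low levels the added 1 FPKM shrinks the log2 change, which was 0.94 with 0.1 FPKM added. Per 1000 FPKM of regulatory light chains Mylk averaged 2.23 ± 0.349 in FHL3-KO and 1.41 ± 0.575 in WT, with overlapping groups. The call ended without FHL3-KO replicate 3 (0.49, limma adjusted p = 0.0509), without WT replicate 2 (0.50, 0.0658) and without WT replicate 3 (0.45, 0.0507). The gene encodes a long and a short kinase and the kinase-free telokin from separate starts, and a single value per gene does not separate them.

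Among the regulatory light chains Myl9 rose while Myl12a and Myl12b did not pass the test. Myl9 (ENSMUSG00000067818, chromosome 2, 156775420 to 156781658, plus strand), the form typical of smooth muscle, was at 39.7, 31.7 and 43.9 FPKM in FHL3-KO and at 24.04, 26.8 and 30.0 FPKM in WT. The lowest FHL3-KO library was just above the highest WT library. It averaged 38.4 ± 6.18 FPKM in FHL3-KO and 26.9 ± 2.98 FPKM in WT, a log2 change of 0.49 (SE 0.135, limma adjusted p = 0.024). The call ended without a filter (limma adjusted p = 0.0794) and without any of FHL3-KO replicate 1 (0.0793), FHL3-KO replicate 3 (0.0702), WT replicate 1 (0.072) or WT replicate 2 (0.0731), with log2 changes of 0.39 to 0.49. With the length and GC trend removed the change was 0.32.

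Myl12a carried most of the regulatory light chain RNA. Myl12a (ENSMUSG00000024048, chromosome 17, 70993656 to 71002878, minus strand) was at 578.4, 468.9 and 676.1 FPKM in FHL3-KO and at 380.4, 446.9 and 527.5 FPKM in WT. The groups overlapped, and the log2 change of 0.34 had a 95% interval of -0.050 to 0.74 (limma adjusted p = 0.141). Without FHL3-KO replicate 2 it was 0.48 and passed (limma adjusted p = 0.0457). Myl12b (ENSMUSG00000034868, chromosome 17, 70973133 to 70990890) lies 2765 bases from Myl12a on the same strand. It was at 61.9, 49.99 and 60.8 FPKM in FHL3-KO and at 59.5, 61.5 and 67.4 FPKM in WT, with a log2 change of -0.13 (95% interval -0.37 to 0.11, limma adjusted p = 0.35).

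Each FHL3-KO library held a smaller share of Myl12b and larger shares of Myl12a and Myl9 than any WT library. The ratio of Myl12a to Myl12b, taken up after the values were seen, was 9.34, 9.38 and 11.1 in FHL3-KO and 6.39, 7.26 and 7.83 in WT. Myl12b took 8.66% ± 0.756 of the summed regulatory light chain FPKM in FHL3-KO and 11.7% ± 1.04 in WT. Myl12a took 85.6% ± 0.86 in FHL3-KO and 83.3% ± 1.22 in WT, and Myl9 5.74% ± 0.11 in FHL3-KO and 4.996% ± 0.19 in WT. Each of the 3 reached the lowest exact permutation p of this design (0.1, two-sided, also 0.1 adjusted over the 3). The uncertain division of reads between Myl12a and Myl12b bears on these shares. The sum of the 3 was 680, 550.6 and 780.8 FPKM in FHL3-KO and 464, 535.2 and 624.9 FPKM in WT, with overlapping groups.

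Myl6, the essential light chain of nonmuscle and smooth muscle myosin, was the most abundant of the 9 genes. Myl6 (ENSMUSG00000090841, chromosome 10, 128490860 to 128494145, minus strand) was at 703.5, 553.1 and 918.9 FPKM in FHL3-KO and at 793.1, 1046 and 1237 FPKM in WT. FHL3-KO replicate 3 lay above WT replicate 1, so the groups overlapped. The log2 change of -0.51 had a 95% interval of -1.03 to 0.015 and did not pass limma (adjusted p = 0.107). It passed after quantile normalization (-0.74, limma adjusted p = 0.0063), with the same FPKM sum (-0.62, 0.0365), with the length and GC trend removed (-0.66, 0.0339), with the median transcript length trend removed (-0.56, 0.0299) and without FHL3-KO replicate 3 (-0.69, 0.0456).

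Set against the regulatory light chains of the same library, Myl6 was lower in every FHL3-KO library than in any WT library. The ratio of Myl6 to the summed Myl9, Myl12a and Myl12b was 1.04, 1.01 and 1.18 in FHL3-KO and 1.71, 1.95 and 1.98 in WT. It averaged 1.07 ± 0.0921 in FHL3-KO and 1.88 ± 0.149 in WT (SD, n = 3 each), a difference of -0.81 that ran from -0.90 to -0.76 over 9 alternatives. The exact two-sided permutation p was again 0.1, and 0.2 adjusted over the 4 sums and ratios tested. In a ratio taken up after the values were seen, light chains summed to 8.42 ± 1.59 times the heavy chains in FHL3-KO and to 8.34 ± 1.97 times in WT, which overlapped.

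**Figure D2:**
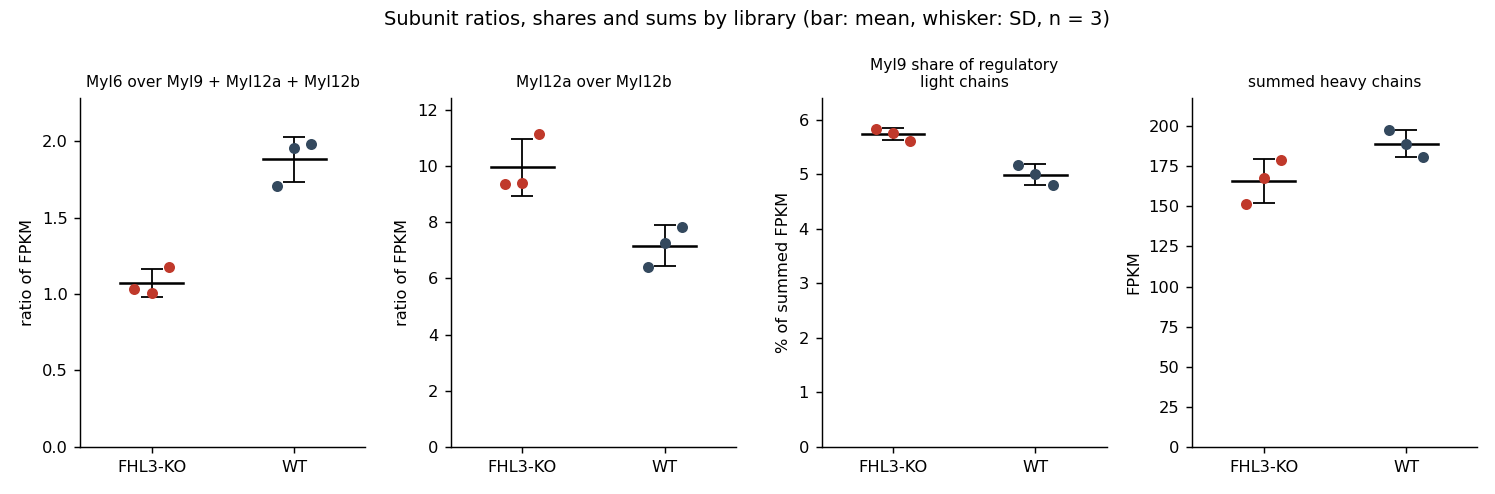
Ratio of Myl6 to the summed regulatory light chains, ratio of Myl12a to Myl12b, share of Myl9 among the regulatory light chains and summed heavy chain FPKM, by library. FHL3-KO stands left of WT, points are libraries, bars are means and whiskers SD (n = 3 each). The ratio of Myl6 reaches at most 1.18 in FHL3-KO and at least 1.71 in WT.

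The near relative Myl6b rose, while Myl6 did not pass the test. Myl6b, an essential light chain of nonmuscle and slow skeletal myosin, lies 11 bases from Myl6 on the same strand of chromosome 10. It stood at 309.5, 250.7 and 355.1 FPKM in FHL3-KO, against 124.1, 162 and 165.7 FPKM in WT (log2 change 1.01, limma adjusted p = 0.00283). The groups did not overlap. Adding it to Myl6, which was chosen after its values were seen, gave a ratio to the regulatory light chains of 1.53 ± 0.0917 in FHL3-KO and 2.16 ± 0.158 in WT, still without overlap. Myl6 and Myl6b shared no 50-base word, but reads that cross from one gene into the next cannot be placed from a single value per gene.

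The light chains of a library tended to deviate together. In FHL3-KO replicate 2, Myl6, Myl12a, Myl9 and Myl12b lay 0.36, 0.28, 0.26 and 0.19 below their group means on the log2 scale, and in WT replicate 1 they lay 0.35, 0.23, 0.15 and 0.075 below. In FHL3-KO replicate 3 and WT replicate 3 all 4 lay above. Over the 3375 tested genes with a median transcript length under 1500 bases, the median deviation was -0.078 in FHL3-KO replicate 2, -0.081 in WT replicate 1 and 0.078 in WT replicate 3. The 1539 genes over 5000 bases deviated by 0.14, 0.17 and -0.15 in those libraries. Short genes also had a median log2 change of 0.11 between the groups and long genes one of -0.23. In FHL3-KO replicate 2, WT replicate 1 and WT replicate 3 the light chains thus deviated in the same direction as short genes. The long Myh9 and Myh10 did not follow long genes in FHL3-KO replicate 3, at 0.113 and 0.0697 against -0.0679. The part of transcript length in the results was not tested.

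**Figure D3:**
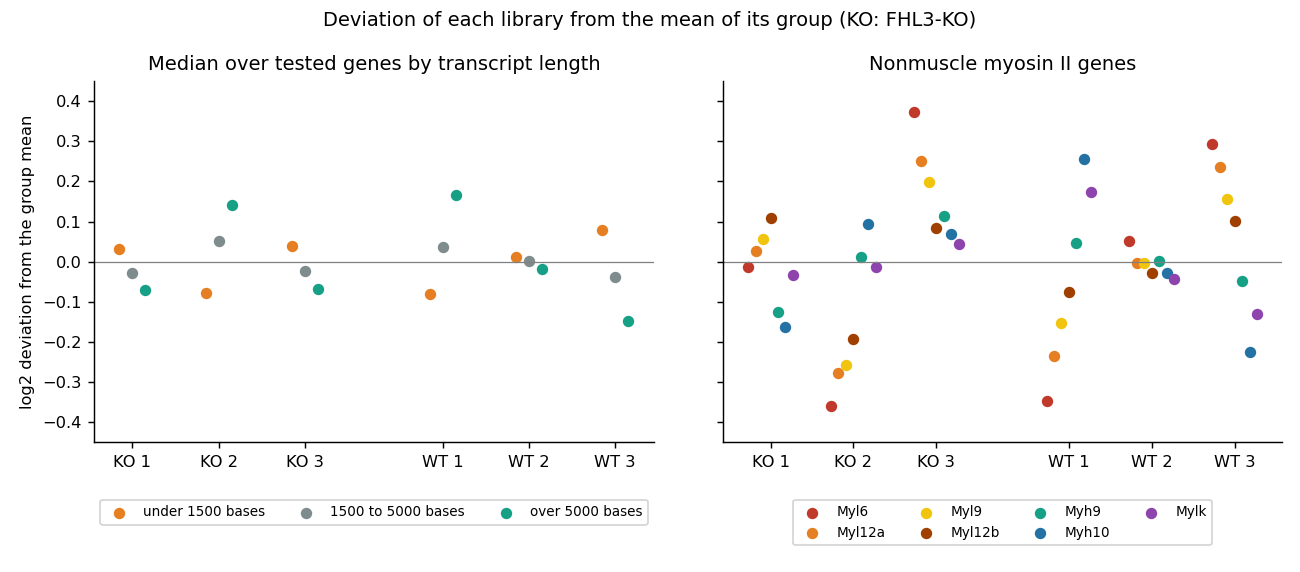
Deviation of each library from the mean of its group, in log2(FPKM + 1). Left, the median over tested genes in 3 classes of median transcript length, and right, each of the 7 tested genes. Short genes and light chains both lie low in FHL3-KO replicate 2 and WT replicate 1 and high in WT replicate 3.

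**Figure D4:**
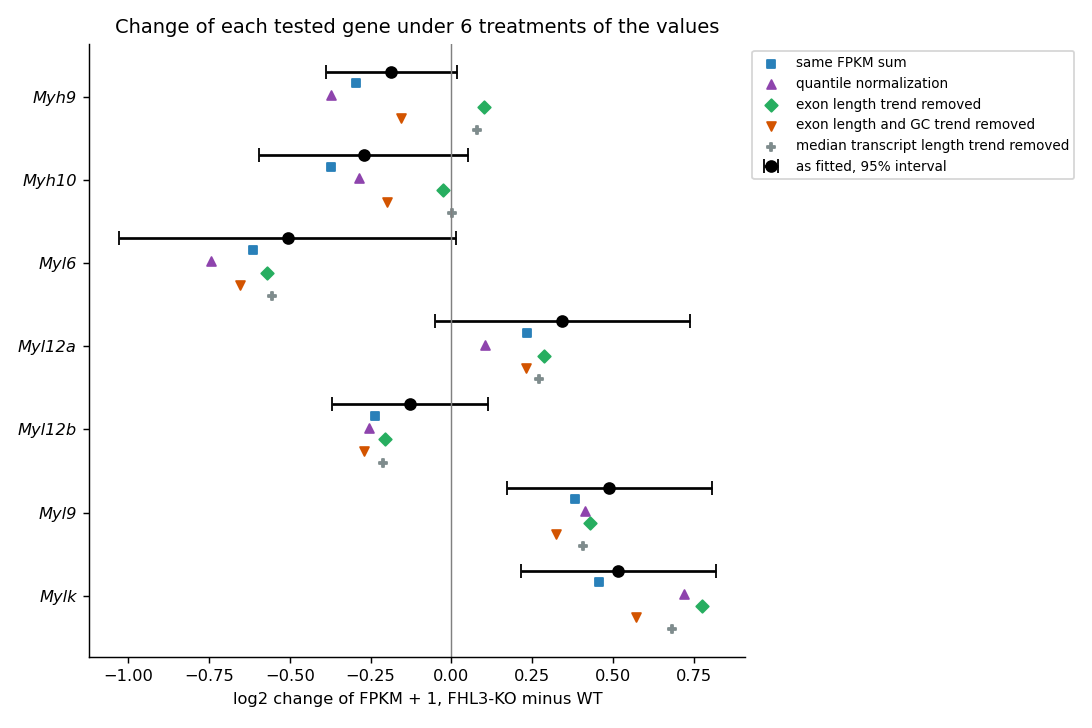
Log2 change of FPKM + 1, FHL3-KO minus WT, for the 7 tested genes. Black points with whiskers are the estimates as fitted with 95% intervals, and coloured marks are the estimates under other scalings or after removal of a trend with length or GC content. Mylk and Myl9 stay above 0 and Myl6 and Myl12b below 0 under each, while Myh9 and Myh10 cross it.

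Promoter windows are shown for the 2 genes that rose and for the Myl6 start that shares a motif with Myl9. RefSeq windows (GRCm38.p6, 250 bases before to 50 after a start) were found for 8 of the 9 genes, 9 windows in all, and were searched on both strands for the CArG box of serum response factor, for CCATNTT, the core bound by YY1, and for CATTCC, the core bound by TEAD factors. Capitals mark matches, a match on the other strand being shown as it reads on the printed strand. The Myl9 window is chr2:156775214-156775513, plus strand.
Myl9: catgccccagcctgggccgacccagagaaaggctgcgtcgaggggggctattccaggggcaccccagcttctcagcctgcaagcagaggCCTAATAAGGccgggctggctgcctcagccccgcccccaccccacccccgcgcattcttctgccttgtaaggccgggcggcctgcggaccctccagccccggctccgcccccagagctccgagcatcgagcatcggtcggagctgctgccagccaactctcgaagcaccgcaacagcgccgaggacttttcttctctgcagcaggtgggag
The window of the second listed Myl6 start is chr10:128492960-128493259, minus strand, and that of Mylk is chr16:34784700-34784999, plus strand.
Myl6: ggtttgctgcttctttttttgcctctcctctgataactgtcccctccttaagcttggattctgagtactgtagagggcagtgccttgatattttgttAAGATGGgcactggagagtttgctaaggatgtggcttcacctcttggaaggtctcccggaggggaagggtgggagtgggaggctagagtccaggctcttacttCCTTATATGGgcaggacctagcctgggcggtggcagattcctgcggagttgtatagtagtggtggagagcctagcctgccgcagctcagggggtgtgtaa
Mylk: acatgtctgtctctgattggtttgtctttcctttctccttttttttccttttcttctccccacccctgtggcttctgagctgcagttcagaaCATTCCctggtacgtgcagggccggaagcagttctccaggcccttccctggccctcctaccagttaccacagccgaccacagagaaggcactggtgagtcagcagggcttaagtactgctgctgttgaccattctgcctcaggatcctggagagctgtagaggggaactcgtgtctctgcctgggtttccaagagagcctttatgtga
A CArG box lay 161 to 152 bases before the Myl9 start and another 50 to 41 bases before this Myl6 start, 2 of 9 windows, against 1.63% of all 32851 windows in the table. CCATNTT occurred in 1 of the 9, also the Myl6 window, against 16.1% of all, and CATTCC in 3, including Mylk, against 14.7%. Of the 2 genes with a CArG box in a searched window 1 rose and the other did not pass the test. The window of the first listed Myl6 start (chr10:128493837-128494136, minus strand) held no match to any of these motifs. The window of the second lay inside the gene, downstream of the first coding base of the Myl6 transcript used here (128493811, minus strand). The Mylk window also lay inside its gene, which begins at 34745210 on the plus strand. No other start of Mylk was searched, so a motif at the start of another of its products would not have been seen. A match is only a stretch of letters, and no binding was measured.

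Upstream of the light chains, single genes changed in both directions. Of 24 tested genes that lead to light chain phosphorylation, 7 rose, 5 fell and 12 were not called, beside 40.8% called over all genes tested. The 12 calls became 6 without FHL3-KO replicate 1 and 7 without WT replicate 2. Their median log2 change was 0.04, against -0.0051 over all genes tested. Rock2, a kinase of the light chain and of its phosphatase, fell to 12.9, 20.04 and 13.2 FPKM in FHL3-KO, against 45.3, 33.0 and 26.8 FPKM in WT (log2 change -1.13, limma adjusted p = 0.00644, and -0.62 with the length and GC trend removed). All 3 FHL3-KO libraries lay below all WT libraries. Rock1 averaged 5.34 ± 1.31 FPKM in FHL3-KO and 6.79 ± 1.96 FPKM in WT (limma adjusted p = 0.309). Rhob, a stress-regulated small GTPase, rose to 503.5 ± 13.2 FPKM in FHL3-KO, against 343.5 ± 10.0 in WT (log2 change 0.55, limma adjusted p = 0.00204, and 0.27 after quantile normalization). Plekhg5, a guanine nucleotide exchange factor, rose to 30.8 ± 1.78 FPKM in FHL3-KO, against 18.1 ± 0.27 in WT (limma adjusted p = 0.000526). Calm2, a gene for the calmodulin that activates Mylk, rose to 182.2 ± 11.4 FPKM in FHL3-KO, against 132.6 ± 4.36 in WT (limma adjusted p = 0.00415, but 0.0682 after quantile normalization).

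Of the 3 targeting subunits of myosin phosphatase in the list, 1 fell. Ppp1r12a, which brings the phosphatase to myosin, was at 15.8, 18.4 and 14.6 FPKM in FHL3-KO, against 34.6, 28.4 and 24.2 FPKM in WT (log2 change -0.79, limma adjusted p = 0.00448, and -0.32 with the length and GC trend removed). All 3 FHL3-KO libraries lay below all WT libraries. Ppp1r12b averaged 4.44 ± 0.524 FPKM in FHL3-KO and 3.44 ± 0.362 FPKM in WT, and Ppp1r12c 14.3 ± 1.44 FPKM in FHL3-KO and 15.5 ± 0.167 FPKM in WT (limma adjusted p = 0.0873 and 0.354). The catalytic partner Ppp1cb averaged 29.6 ± 2.91 FPKM in FHL3-KO and 33.1 ± 3.51 FPKM in WT (limma adjusted p = 0.287). Of the inhibitor family, Ppp1r14b rose to 678.8 ± 113 FPKM in FHL3-KO, against 402.7 ± 87 in WT (log2 change 0.76, limma adjusted p = 0.0156, and 0.48 with the length and GC trend removed), and Ppp1r14c fell to 23.8 ± 1.89 FPKM in FHL3-KO, against 30.6 ± 2.03 in WT (limma adjusted p = 0.0188). Both calls ended on leaving out FHL3-KO replicate 1 (limma adjusted p = 0.0553 for Ppp1r14b and 0.0691 for Ppp1r14c), that of Ppp1r14b also without a filter (0.0691), and that of Ppp1r14c also without FHL3-KO replicate 3 (0.0592), WT replicate 1 (0.0502) or WT replicate 2 (0.084). Mprip, which scaffolds the phosphatase on actin, was at 73.3 ± 8.04 FPKM in FHL3-KO and 61.5 ± 3.87 FPKM in WT (limma adjusted p = 0.0811). Of 7 tested genes of this group 1 rose and 2 fell, close to the 40.8% called over all genes, with a median log2 change of -0.11. The 3 calls became 1 without FHL3-KO replicate 1, and after removal of the length and GC trend all 7 passed, 4 upward.

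Of 24 tested genes that bundle, cap or anchor nonmuscle actomyosin, 4 rose and 4 fell, where 40.8% of all genes tested were called, with a median log2 change of -0.04. Myo18a, a class XVIII myosin that joins nonmuscle myosin II filaments, rose to 95.02, 99.7 and 105.6 FPKM in FHL3-KO, against 72.3, 69.96 and 65.6 FPKM in WT (log2 change 0.52, limma adjusted p = 0.00227, and 0.85 with the exon length trend removed). Pxn, the focal adhesion adaptor paxillin, rose to 49.5 ± 1.46 FPKM in FHL3-KO, against 30.03 ± 0.568 in WT, and Palld, the actin crosslinker palladin, to 41.5 ± 7.73 FPKM in FHL3-KO, against 20.4 ± 2.34 in WT (limma adjusted p = 0.000412 and 0.00195). Lasp1, a LIM and SH3 protein of actin bundles, fell to 65.2 ± 2.8 FPKM in FHL3-KO, against 92.8 ± 2.01 in WT (limma adjusted p = 0.00179). S100a4, which disassembles IIA filaments, averaged 924.9 ± 99.7 FPKM in FHL3-KO and 1264 ± 283 FPKM in WT (limma adjusted p = 0.0885). The cytoplasmic actins Actb and Actg1 did not pass either (limma adjusted p = 0.185 and 0.781).

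Of 11 tested contractile genes typical of smooth muscle, 6 rose, 2 fell and 3 were not called, with a median log2 change of 0.27, where 19.7% of all genes tested rose and 21.2% fell. Cnn1, 1 of the 2 falls, passed the filter only through its level in WT and had to be lower in FHL3-KO. After quantile normalization 2 rose and 2 fell, and with the same FPKM sum 3 rose and 2 fell. The calls also became 5 without a filter and without any of FHL3-KO replicates 1 and 3 or WT replicates 2 and 3. Smtn, the actin-binding smoothelin, rose to 82.3 ± 4.12 FPKM in FHL3-KO, against 45.4 ± 2.44 in WT (limma adjusted p = 0.000322). The tropomyosins Tpm1 and Tpm2, also parts of the sarcomere, rose, Tpm1 to 1091 ± 9.64 FPKM in FHL3-KO, against 774.5 ± 40.9 in WT, and Tpm2 to 835.1 ± 80.2 FPKM in FHL3-KO, against 577.9 ± 16.7 in WT. Both calls ended after quantile normalization (limma adjusted p = 0.0705 and 0.173). Lmod1, Synpo2 and Pdlim3 made up the other rises (limma adjusted p = 0.0475, 0.0451 and 0.0355). Actg2, enteric smooth muscle actin, fell to 9.21 ± 0.592 FPKM in FHL3-KO, against 36.01 ± 3.1 in WT (limma adjusted p = 3.1e-05). With Myh11 and Myocd near 0, the rises are not read as a smooth muscle trait. Skeletal myotube markers rose in the same libraries, and their part in these rises was not tested.

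Serum response factor and its myocardin-related coactivators did not pass the test, and their listed targets went in both directions. Of 18 tested genes, 5 rose and 2 fell, with a median log2 change of 0.08, where 19.7% of all genes tested rose and 21.2% fell. Of the listed targets, Acta2, Tagln and Vcl were not called (limma adjusted p = 0.0949, 0.427 and 0.678). Cnn2 fell to 101.8 FPKM in FHL3-KO, against 157.6 FPKM in WT (log2 change -0.62, limma adjusted p = 0.0076). The 5 rises were also listed targets, namely Egr1, Ccn2, Ccn1, Tpm1 and Fos. Tpm1 is given above, and Fos rose to 6.12 FPKM in FHL3-KO, against 4.15 FPKM in WT (limma adjusted p = 0.0209, but 0.0585 without a filter). In FHL3-KO Srf averaged 32.4 ± 3.17 FPKM, against 27.6 ± 0.347 in WT, Mrtfa 18.04 ± 2.16 FPKM, against 17.9 ± 2.35 in WT, and Mrtfb 5.30 ± 0.456 FPKM, against 6.54 ± 1.76 in WT (limma adjusted p = 0.0773, 0.955 and 0.284). Egr1, an immediate early transcription factor, rose to 76.7 ± 5.94 FPKM in FHL3-KO, against 18.7 ± 2.7 in WT, Ccn2 to 433.4 ± 75.2 FPKM in FHL3-KO, against 212.2 ± 28.6 in WT, and Ccn1 to 200.9 ± 6.58 FPKM in FHL3-KO, against 123.2 ± 4.72 in WT (limma adjusted p = 5.2e-05, 0.0023 and 0.000547). Fhl2, a LIM-only relative of Fhl3, fell to 41.5 ± 3.87 FPKM in FHL3-KO, against 59.4 ± 1.66 in WT (limma adjusted p = 0.00394).

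**Figure D5:**
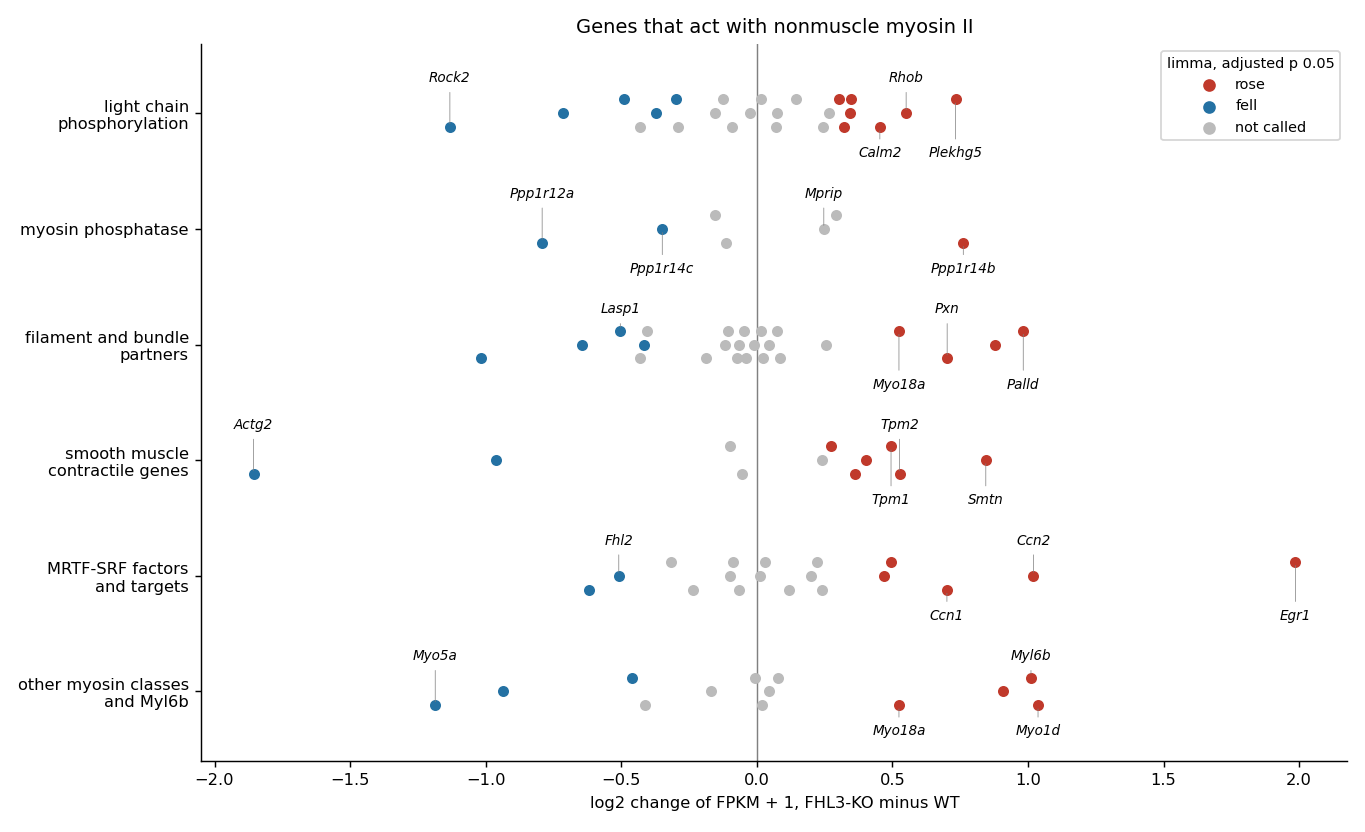
Log2 change of FPKM + 1, FHL3-KO minus WT, of the tested genes in 6 groups that act with or beside nonmuscle myosin II. Each point is a gene, red for rises, blue for falls and grey for genes not past a limma adjusted p of 0.05, with the 4 genes of smallest p and at least 5 FPKM named in each group. Rises and falls stand side by side in each group, with Rock2 and Ppp1r12a among the falls.

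The genes whose levels ran closest to the heavy chains and the kinase over the 6 libraries were sought among 8526 genes of at least 5 FPKM in a group, by the root mean square difference of centred log2(FPKM + 1). For Myh9 they included Gpr180 and Phldb1, with differences of 0.022 and 0.0304. For Myh10 they were Scaf8, Ubr4 and Atrn (0.0311, 0.0457 and 0.0521), and for Mylk Ddx39b, Drp2 and Dis3l2 (0.0379, 0.04 and 0.043). The added 1 FPKM shrinks the differences of a gene as low as Mylk, whose group means had a ratio of 2.0. Ddx39b averaged 109.6 FPKM in FHL3-KO and 78.45 FPKM in WT, so its likeness to Mylk depends on that addition. All these comparisons share 6 libraries in 2 groups and the length trend given above, so the likeness is a description.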

How the data were processed

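RNA-seq of 6 libraries was used, 3 labelled FHL3-KO and 3 labelled WT. The authors deposited 1 table with a decimal value per gene and library and no stated unit, read here as FPKM from its values, whose library sums differ and are no round total. The tools DESeq2 (1.28.1), featureCounts (2.0.1), HISAT2 (2.2.1) and Trim Galore (0.6.6) and the build mm10 are named, with no role or order, per the submitters' processing notes. For annotation, strand setting and shared reads the sources used here state nothing. Without counts no counting interval can be given.

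Rows sharing 3 repeated IDs (7 of 55420) were left out. The 12528 genes that reached 1 FPKM as the mean of either group were fitted as log2(FPKM + 1) in limma 3.58.1 (R 4.3.3; mean-variance trend, two-sided, no covariates), with Benjamini-Hochberg adjustment over all of them. Shares and ratios were compared by exact permutation (scipy 1.17.1). Lengths, coordinates and coding sequences came from GENCODE M21 (GRCm38, the build mm10 names), which held 94.08% of IDs. Trends with length were removed with splines of 5 degrees of freedom. The fit was tested on simulated data.

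Named genes were the 9 genes, Fhl3, the 4 of each partner list with the smallest p and at least 5 FPKM, and the 3 nearest genes of each tested heavy chain and Mylk. One gene so named is not reported here. Rock1, Ppp1cb, S100a4, Actb, Actg1, Srf, Mrtfa, Mrtfb, Myocd, Acta2, Tagln, Vcl, Cnn1, Cnn2, Lmod1, Synpo2, Pdlim3, Fos, Myo18b, Ppp1r12b, Ppp1r12c and the cell type markers named singly were chosen after their values were seen. The genes and lists were chosen with earlier results of these data known. Alternatives were other pseudocounts, filters, scalings and thresholds, length and GC trends, the replicate block and leaving out each library. Removal of the trend with median transcript length was chosen after seeing the data.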

Additional observations from a re-analysis of the deposited data

How the results depend on the processing

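Of the 7 tested genes, Myl6, Myl9, Myl12a, Myl12b and Mylk kept their sign under every alternative that tested them, and Myh9 and Myh10 did not. The number called, 2 as fitted, was 1 without a filter, 1 with a filter at 5 FPKM (which Mylk did not pass), 4 with the same FPKM sum, 4 after quantile normalization, 4 with the length and GC trend removed, 0 at an adjusted p of 0.01, and 0 to 3 on leaving out a library, with 0 without WT replicate 2. Over all genes 5112 calls became 2695 at 0.01 and 3272 to 5273 on leaving out a library, the lowest again without WT replicate 2. Log2 changes on leaving out a library ran from 0.39 to 0.62 for Myl9, 0.45 to 0.60 for Mylk, -0.69 to -0.33 for Myl6 and 0.22 to 0.48 for Myl12a. At the threshold of 0.01 neither Myl9 (0.49) nor Mylk (0.52) passed, and without a filter Myl9 (0.49) did not. Myh9 passed with the same FPKM sum (-0.30) and after quantile normalization (-0.37) and turned with the exon length (0.10) or median transcript length trend removed (0.079). Myh10 turned with the transcript length trend removed (0.0022). Myl6 passed with the same FPKM sum (-0.62), after quantile normalization (-0.74) and with the length and GC (-0.66) or transcript length trend (-0.56) removed, and Myl12b with the length and GC trend removed (-0.27). The difference in summed heavy chains turned to 3.36 FPKM with the exon length trend removed, and that in the share of Myh11, which is near 0, to 0.0254 percentage points. On leaving out a library the difference in the share of Myh9 ran from -0.302 to 0.839 and that of Myh10 from -1.12 to 0.0274 percentage points, both turning without WT replicate 1. The causes were not tested. The labels name no pairing of the libraries by number. Correlations of deviations were -0.127, -0.063 and 0.316 for numbers 1, 2 and 3, and -0.376 to 0.368 between unequal numbers. So few libraries cannot settle whether the numbers pair the samples. With the replicate number as a block 2 of the 7 genes and 4759 of all genes were called. With the FPKM scaled to the same sum, 36.3% of calls over all genes were rises, against 48.2% as fitted. Counts for the partner lists together, 43 as fitted, ran from 30 to 51. Depth is unknown, so the precision of the low values of Myh11, Myh14 and Mylk is not known.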

Other observations

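Of 13 tested genes in the list of other myosin classes and Myl6b, 4 rose and 3 fell, with a median log2 change of 0.02, where 40.8% of all genes tested were called. Myo18b, 1 of the 4 rises, averaged 1.13 FPKM in FHL3-KO and 0.137 FPKM in WT. It passed the filter only through its level in FHL3-KO and had to be higher there. Myo18a, another of these rises, was also counted among the bundle partners above. Myo1d, a membrane-linked class I motor, rose to 6.70 ± 0.451 FPKM in FHL3-KO, against 2.75 ± 0.215 FPKM in WT (limma adjusted p = 0.000432). Myo5a, a cargo transporter, fell to 2.76 ± 0.617 FPKM in FHL3-KO, against 7.61 ± 1.92 FPKM in WT (limma adjusted p = 0.00265). Myo3a, Myo3b and Myo16 were listed at 0 in all 6 libraries. Among the other cell types looked for, summed endothelial markers reached 0.167 FPKM in FHL3-KO and 1.26 FPKM in WT, and macrophage markers 0.864 FPKM in FHL3-KO and 0.853 FPKM in WT. Most of the endothelial sum in WT was Tek alone, at 0.934, 0.885 and 0.524 FPKM in WT replicates 1, 2 and 3. No other endothelial marker was above 0.1312 FPKM in any library. Summed defining markers of smooth muscle stood at 1127 to 1217 FPKM in FHL3-KO and 940.6 to 1038 FPKM in WT. Nearly all of this sum was Acta2, which was not called (limma adjusted p = 0.0949), and of 3 tested markers Lmod1 rose and Cnn1 fell. Cnn1 entered the test only through its level in WT.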
